A study of Mus musculus with 33 samples.

Results

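The mu and alpha constant genes of the mouse immunoglobulin heavy chain (Igh) locus were followed through 5 of the 171152 targets whose RNA was counted in CH12 cells. The members were chosen by name and position, with earlier results of these data known. They are a numbered genomic region inside Igha (region_11867), called the alpha region here, a numbered region over Ighm (region_11873), called the mu region, and 3 of the 7 named Igh elements in the tables, which are the mu enhancer transcript (mu_enhancer_transcript), the mu switch intron transcript (switch_mu_intron_transcript) and the alpha switch intron transcript (switch_alpha_intron_transcript). CH12 cells are an established mouse B cell lymphoma line expressing surface IgM and able to switch to IgA upon stimulation. The series concerns ZMYND8, a chromatin reader, the Igh enhancers and class switching. Ribosome-depleted total RNA was sequenced from 4 CH12 lines after 48 h in culture, activated or unactivated, with a stimulus that the labels leave unnamed. The lines were KO2 and KO1, which lack ZMYND8 and are each 1 clone, a WT clone, and the line labelled WT, taken as the parental line and written parental WT. Each line and state had 3 cultures, so that 24 libraries fell into 8 groups of 3, or 6 libraries for each genotype and state.

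Class switching exchanges the constant part of an antibody by joining the switch region before the mu constant gene to the switch region before another constant gene, such as alpha. Transcription must run through both switch regions beforehand, and the transcripts are spliced so that the intron over each switch region is removed. The mu transcript starts at a promoter next to the intronic mu enhancer, and the alpha transcript at a promoter that answers to TGF-beta, SMAD and RUNX factors. The enzyme AID then deaminates cytosines in the transcribed switch DNA. Igha encodes the constant part of the alpha heavy chain and Ighm that of the mu heavy chain.

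On build GRCm38 the alpha region lies on chromosome 12 at 113257093 to 113257733. Its 641 bases begin 889 bases inside the low end of Igha (113256204 to 113260236) and cover 15.9% of that gene. The mu region lies at 113418607 to 113429316 on the same chromosome and spans 10710 bases. It covers all of Ighm (113418826 to 113422730), which makes up 36.5% of it, runs 219 bases past the low end of Ighm and 6586 bases past the high end, and also holds the joining segments Ighj4 and Ighj3. The mu enhancer transcript is 1395 bases long, the alpha switch intron transcript 394 bases and the mu switch intron transcript 264 bases, and the tables give no positions for these 3 elements. Reads over annotated Ighm and Igha transcripts could have been assigned to those transcripts, which were not identified here. No member can thus be read as the level of mature mu or alpha mRNA. The mu region covers all of Ighm, so part of its count may still come from mature mu mRNA. Counts of the alpha region and of the alpha switch intron transcript were whole numbers in 24 of 24 libraries, to within 0.001. Counts of the mu region were whole in 0 libraries and those of the mu enhancer transcript in 1, so reads of both mu targets were shared with other targets by the counting model, and the 2 values may depend on each other. The mu region spans the interval between Ighm and the joining segments, so the intronic mu enhancer may lie inside it. Comparisons of these 2 targets may then set a part against the whole. The strand setting of the counting is not given, so sense and antisense RNA cannot be told apart.

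Sequencing depth, the total estimated count of a library, was between 28.99 M and 34.07 M, the median library having 32.1 M. Levels are given as CPM, the counts of a target per 1 M of that total, with no further scaling. RNA over Zmynd8, summed over 6 regions, was 1.56 to 4.43 CPM in the 12 KO libraries and 1.16 to 3.39 CPM in the 12 WT libraries, so it was not lower in KO and does not check the genotype labels. Of 8 B cell markers 5 had regions, and their sum was 46.7 to 69.1 CPM in activated KO, 25.3 to 48.8 CPM in activated WT, 31.5 to 45.6 CPM in unactivated KO and 15.4 to 43.8 CPM in unactivated WT libraries, most of it from Ebf1 and Pax5. Cd79a and Cd22 had means of at most 0.39 and 0.19 CPM in any genotype and state. Blk was lower in activated cells, at 4.54 against 5.52 CPM in KO and 1.63 against 3.99 CPM in WT. The 3 plasma cell markers with regions summed to 3.44 to 5.22 CPM in activated KO, 1.65 to 3.04 CPM in activated WT, 2.03 to 2.78 CPM in unactivated KO and 0.721 to 2.66 CPM in unactivated WT. Most of this sum was Irf4, and Sdc1 had means of at most 0.08 CPM. Prdm1 went the other way from Irf4 and fell on activation, from 0.94 to 0.60 CPM in KO and from 0.57 to 0.24 CPM in WT. The T cell marker Lck, 1 of 7 with a region, reached 0.848 CPM in KO and 0.317 CPM in WT at most, and the 3 measured myeloid markers summed to at most 1.28 CPM in any library. The 3 of 4 stromal markers with regions summed to 2.68 to 3.71 CPM in activated KO, 2.47 to 4.16 CPM in activated WT, 1.15 to 1.47 CPM in unactivated KO and 0.824 to 1.88 CPM in unactivated WT, so the sum was higher in activated cells of both genotypes. Most of it came from Pecam1, then Pdgfrb, and Col1a1 was at 0. The part of these markers in the results was not tested. WT clone unactivated replicate 2, parental WT unactivated replicate 3 and KO1 unactivated replicate 2 stood farthest from the other cultures of their groups, with root mean square deviations of 0.601, 0.540 and 0.467 on the log2 scale, and none of the 5 comparisons below gained or lost a call of a member without them.

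The alpha region was higher in unactivated KO cells than in unactivated WT cells and had overlapping levels in the genotypes once the cells were activated. The mu enhancer transcript had the same pattern. The mu region went the other way, lower in unactivated KO cells and higher in activated KO cells. The alpha switch intron transcript rose with activation in both genotypes and did not pass the test between them in either state. In this bulk RNA, fewer cells of a type and less RNA per cell cannot be told apart.

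**Figure D1:**
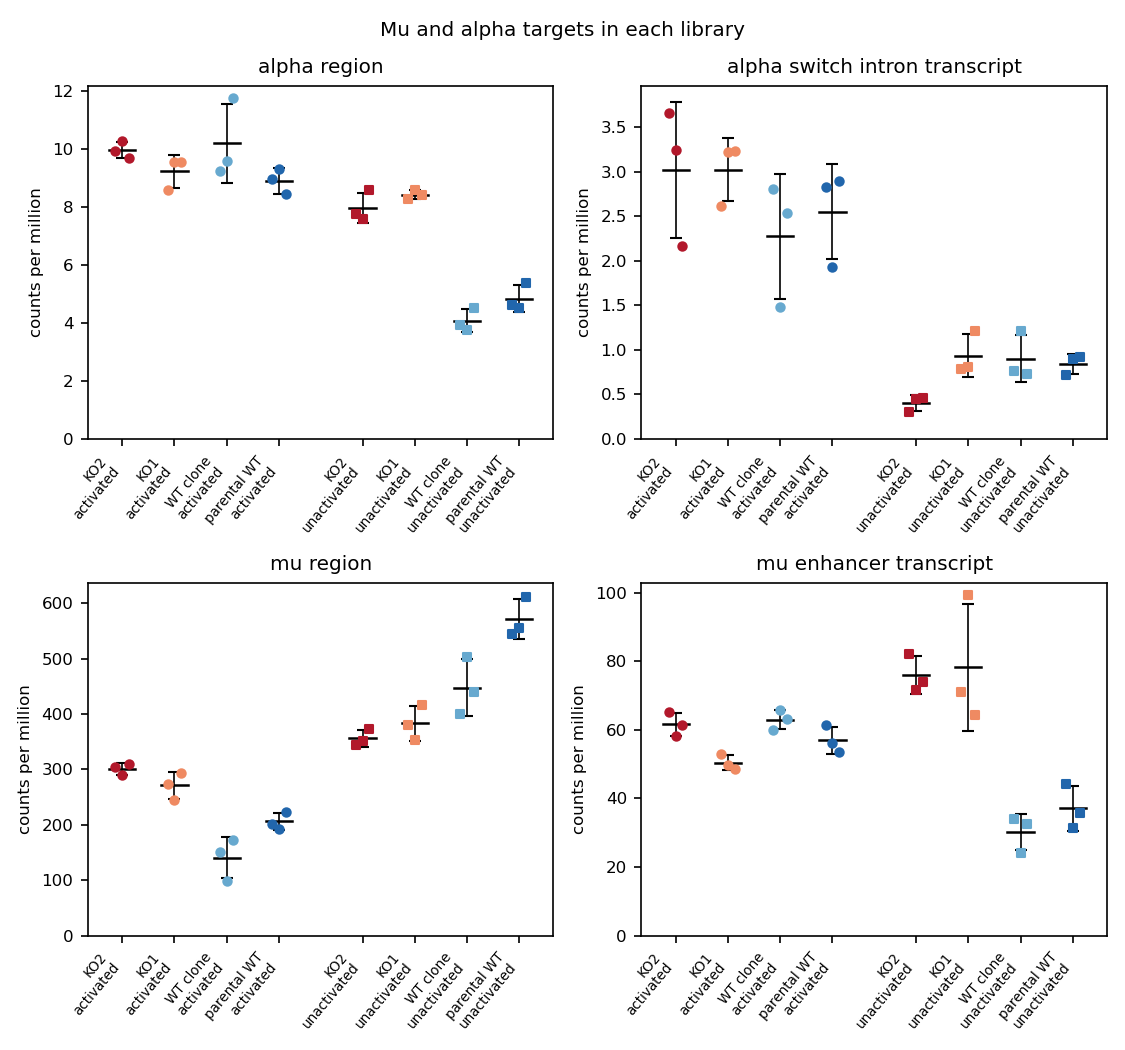
CPM, scaled to the library total (y axes, from 0), of the 4 members that were detected, by line and state on the x axes, with 1 point per culture and a bar for the mean ± SD of 3 cultures. The alpha region is at 7.59 to 8.59 CPM in unactivated KO libraries and at 3.76 to 5.37 CPM in unactivated WT libraries, while the mu region is at 98.9 to 224 CPM in activated WT libraries and at 245 to 309 CPM in activated KO libraries.

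Of the 5 members, 4 passed the filter on low counts, and 3 of these 4 were called between KO and WT in unactivated cells by edgeR's quasi-likelihood test at a Benjamini-Hochberg adjusted p under 0.05, against 7.16% of all 61074 targets tested. In activated cells 1 of the 4 was called, against 6.52% of targets. Activation changed 3 of the 4 in KO, against 19.6% of targets, and 4 of the 4 in WT, against 20.2% of targets. The difference between the activation effects of the genotypes was called for 3 of the 4, against 1.15% of targets. In this fit SE and p rest on the spread between cultures of the same line and state, and not on the spread between lines of a genotype.

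The alpha region had 7.74, 7.59 and 8.57 CPM in the 3 unactivated cultures of KO2 and 8.28, 8.59 and 8.41 CPM in those of KO1. It had 3.93, 3.76 and 4.52 CPM in the unactivated WT clone and 4.62, 4.51 and 5.37 CPM in unactivated parental WT. Each unactivated KO culture thus lay above each unactivated WT culture, with mean levels of 8.20 ± 0.431 CPM for KO and 4.45 ± 0.569 CPM for WT (SD, n = 6). Its log2 change between KO and WT was 0.86 ± 0.08 (SE; adjusted p = 5.34e-07), and it was called in 4 of the 4 pairings of a KO line with a WT line, with log2 changes of 0.73 to 0.99.

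After activation the alpha region stood at 9.92, 10.3 and 9.70 CPM in KO2 and at 8.57, 9.56 and 9.56 CPM in KO1. The activated WT clone had 9.25, 9.58 and 11.8 CPM and activated parental WT 8.96, 9.31 and 8.43 CPM. The genotypes overlapped, with means of 9.60 ± 0.567 CPM for KO and 9.55 ± 1.15 CPM for WT (n = 6), and the log2 change was -0.032 ± 0.078 (adjusted p = 0.944), a value whose sign turned without WT clone replicate 3 (0.0098). Between activated and unactivated cells the alpha region changed by a log2 of 1.01 ± 0.08 in WT (adjusted p = 2.88e-08) and by 0.11 ± 0.08 in KO (adjusted p = 0.36), and the difference of these effects, KO minus WT, was -0.89 ± 0.11 (adjusted p = 0.000194). With the counts of each line's 3 cultures summed, so that 2 lines stood against 2 lines, the unactivated call (log2 0.88) and the call of the difference (-0.92) were lost.

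The alpha switch intron transcript was the weakest detected member, with 10 to 110 counts per library. Its name places it in the intron removed from the germline alpha transcript, but its position is not given. Activated KO2 cultures had 3.65, 3.24 and 2.17 CPM and activated KO1 cultures 2.62, 3.22 and 3.23 CPM. Activated WT clone cultures had 2.81, 1.48 and 2.53 CPM and activated parental WT cultures 2.83, 1.93 and 2.89 CPM. The activated genotypes overlapped, and the log2 change between KO and WT was 0.29 ± 0.20 (adjusted p = 0.569).

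Unactivated KO2 cultures had 0.305, 0.444 and 0.461 CPM of this transcript and unactivated KO1 cultures 0.783, 0.812 and 1.21 CPM. In the unactivated WT clone it was at 0.761, 1.21 and 0.734 CPM and in unactivated parental WT at 0.718, 0.902 and 0.916 CPM. The 3 KO2 cultures lay below each of the other 9 unactivated cultures, while KO1 lay among the WT cultures. Between KO and WT the log2 change was -0.52 ± 0.21 (adjusted p = 0.157); it was -1.12 and called with KO2 alone, and 0.071 with KO1 alone. KO2 against KO1 differed by -1.19 ± 0.30 (adjusted p = 0.131). Activation raised the transcript by a log2 of 2.17 ± 0.21 in KO (adjusted p = 4.48e-07) and 1.36 ± 0.20 in WT (adjusted p = 7.11e-05), every activated culture lay above every unactivated one, and the difference of 0.81 ± 0.29 was not called (adjusted p = 0.259). With counts summed per line the WT rise was not called.

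The mu region, which takes in Ighm and the sequence up to the joining segments, was the member with the most counts. In unactivated cells it had 344, 352 and 373 CPM in KO2 and 381, 352 and 416 CPM in KO1. The unactivated WT clone had 401, 504 and 439 CPM and unactivated parental WT 545, 556 and 612 CPM. The highest KO1 culture overlapped the lowest culture of the WT clone, and parental WT lay above every other unactivated line. KO averaged 370 ± 26.6 CPM and WT 509 ± 78.4 CPM (n = 6), with a log2 change of -0.48 ± 0.09 (adjusted p = 0.00182). It was called in 2 of the 4 pairings of lines, and against the WT clone alone the change of -0.33 was not called.

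In activated cells the mu region stood at 304, 289 and 309 CPM in KO2 and at 274, 245 and 294 CPM in KO1. Activated WT clone cultures had 151, 98.9 and 172 CPM and activated parental WT cultures 202, 193 and 224 CPM. Each activated KO culture lay above each activated WT culture, and the WT clone lay below parental WT. The log2 change between KO and WT was 0.71 ± 0.09 (adjusted p = 3.25e-05), called in 3 of the 4 pairings, with values of 0.35 to 1.06. Activation lowered the region in both genotypes, by -0.49 ± 0.09 in KO (adjusted p = 0.000569) and -1.67 ± 0.09 in WT (adjusted p = 2.94e-10), and the difference, KO minus WT, was 1.18 ± 0.13 (adjusted p = 4.78e-05). With KO2 alone the fall in KO was not called (-0.35), and with counts summed per line the calls between genotypes in both states, of the fall in KO and of the difference were lost.

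RNA from the intronic mu enhancer is a usual sign of an active enhancer, and this element also lies beside the promoter of the germline mu transcript. In unactivated cells the mu enhancer transcript had 82.2, 71.7 and 73.9 CPM in KO2 and 71.0, 99.2 and 64.3 CPM in KO1. It had 33.98, 24.2 and 32.6 CPM in the unactivated WT clone and 44.1, 31.3 and 35.9 CPM in unactivated parental WT. All 6 unactivated KO cultures lay above all 6 unactivated WT cultures, averaging 77.0 ± 12.3 CPM for KO and 33.7 ± 6.47 CPM for WT. The log2 change was 1.18 ± 0.11 (adjusted p = 5.58e-07), called in 4 of the 4 pairings of lines, and 0.98 without the 3 libraries that stood apart, which hold the highest KO1 and the lowest WT culture.

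Activated KO2 cultures had 65.1, 58.2 and 61.4 CPM of the mu enhancer transcript and activated KO1 cultures 52.8, 49.7 and 48.6 CPM. Activated WT clone cultures had 59.96, 65.7 and 63.2 CPM and activated parental WT cultures 61.3, 56.0 and 53.5 CPM. The genotypes overlapped and KO1 was the lowest line, with a log2 change between KO and WT of -0.15 ± 0.11 (adjusted p = 0.597). Activation moved the transcript in opposite directions, by -0.58 ± 0.11 in KO (adjusted p = 0.000567) and 0.74 ± 0.11 in WT (adjusted p = 4.33e-05), and the difference was -1.32 ± 0.15 (adjusted p = 8.7e-05). With KO2 alone the change in KO was not called (-0.41), and with counts summed per line the difference was not called.

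The mu switch intron transcript, by its name the counterpart of the alpha element at the mu gene, was listed at 0 in all 24 libraries. At these depths 0 counts allow up to 0.0881 to 0.104 CPM per library, for counting error only. The effective length of this element is 65.0 of 264 bases, against 195 of 394 for the alpha switch intron transcript. Per length the limit is thus looser for it than for the alpha element. The mu region spans the interval between Ighm and Ighj3, so intron RNA of the mu gene may be counted there.

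**Figure D2:**
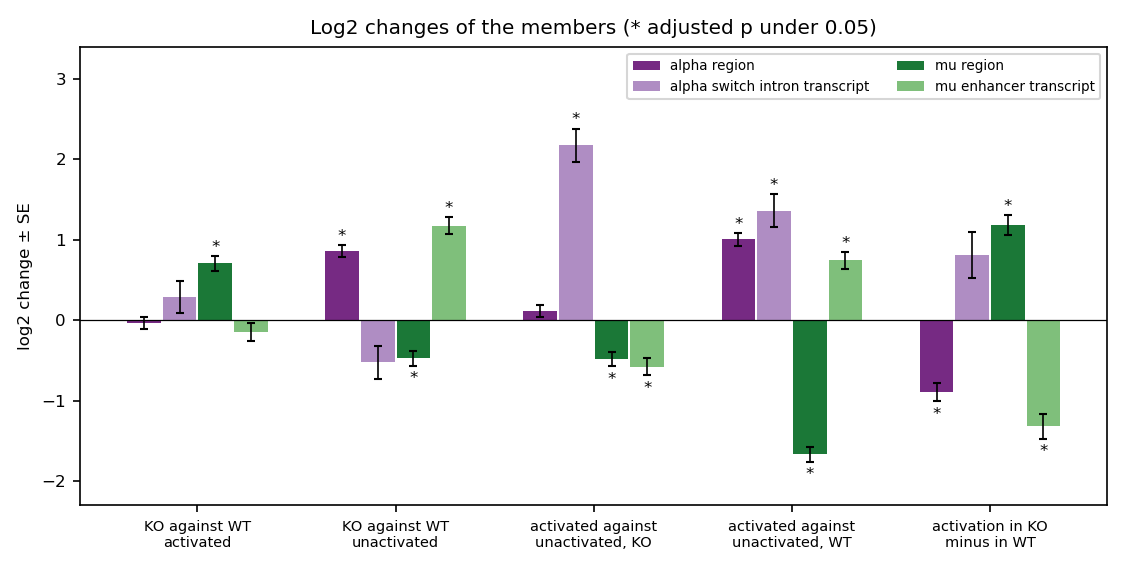
Log2 changes (y axis) of the 4 tested members in the 5 comparisons (x axis) from the edgeR model of all 24 libraries; bars start at 0, error bars are ± 1 SE and a star marks an adjusted p under 0.05. The alpha region and the mu enhancer transcript share the sign of their called changes in unactivated KO cells (0.86 and 1.18), in activated WT cells (1.01 and 0.74) and in the difference (-0.89 and -1.32), where the mu region has the opposite sign (-0.48, -1.67 and 1.18).

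The alpha to mu ratio was taken within each library as alpha region counts per 100 mu region counts, which needs no scaling between libraries. In unactivated cells it was 2.25, 2.16 and 2.30 in KO2 and 2.17, 2.44 and 2.02 in KO1. It was 0.982, 0.746 and 1.03 in the unactivated WT clone and 0.848, 0.811 and 0.877 in unactivated parental WT. Every unactivated KO culture had a higher ratio than every unactivated WT culture, with means of 2.22 ± 0.141 in KO and 0.882 ± 0.106 in WT (SD, n = 6). The log2 ratio differed by 1.34, a 2.53-fold difference, and the 2-sided exact permutation test gave p = 0.00216, its lower bound for groups of 6 libraries (0.00271 after Benjamini-Hochberg adjustment over the 5 comparisons of the ratio).

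In activated cells the order was turned round. The ratio was 3.27, 3.55 and 3.14 in KO2 and 3.13, 3.90 and 3.25 in KO1. It was 6.14, 9.68 and 6.83 in the activated WT clone and 4.43, 4.82 and 3.77 in activated parental WT. The lowest parental WT culture lay below the highest KO1 culture, and the WT clone lay above every other line. Means were 3.37 ± 0.299 in KO and 5.95 ± 2.15 in WT (n = 6), the log2 ratio differed by -0.75, a 1.68-fold lower ratio in KO, and the exact permutation p was 0.00433, also 0.00433 after adjustment. Against the WT clone alone the log2 difference was -1.14 and against parental WT alone -0.36, so its size depended on the WT line.

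Activation raised the ratio in both genotypes, 1.51-fold in KO and 6.43-fold in WT, with log2 differences of 0.60 and 2.69 and an exact permutation p of 0.00216 for each. The rise in WT was larger in the WT clone (log2 3.02) than in parental WT (2.35). The difference of the activation effects, KO minus WT, was -2.09, with an exact permutation p of 4.69e-06 when genotype labels were permuted within each state (2.34e-05 adjusted), a test whose null is that genotype matters in neither state. These tests take the 6 cultures of a genotype as independent although they come from 2 lines. With 1 mean per line, 2 lines against 2, an exact permutation test cannot go below p = 0.333, so at the level of lines none of these ratio differences could pass. Taken culture by culture within a line and replicate number, the activation difference was 0.45 to 0.72 in the 6 KO pairs and 2.10 to 3.69 in the 6 WT pairs, with no overlap (exact permutation p = 0.00216), where the numbers serve only to match a culture of each state.

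**Figure D3:**
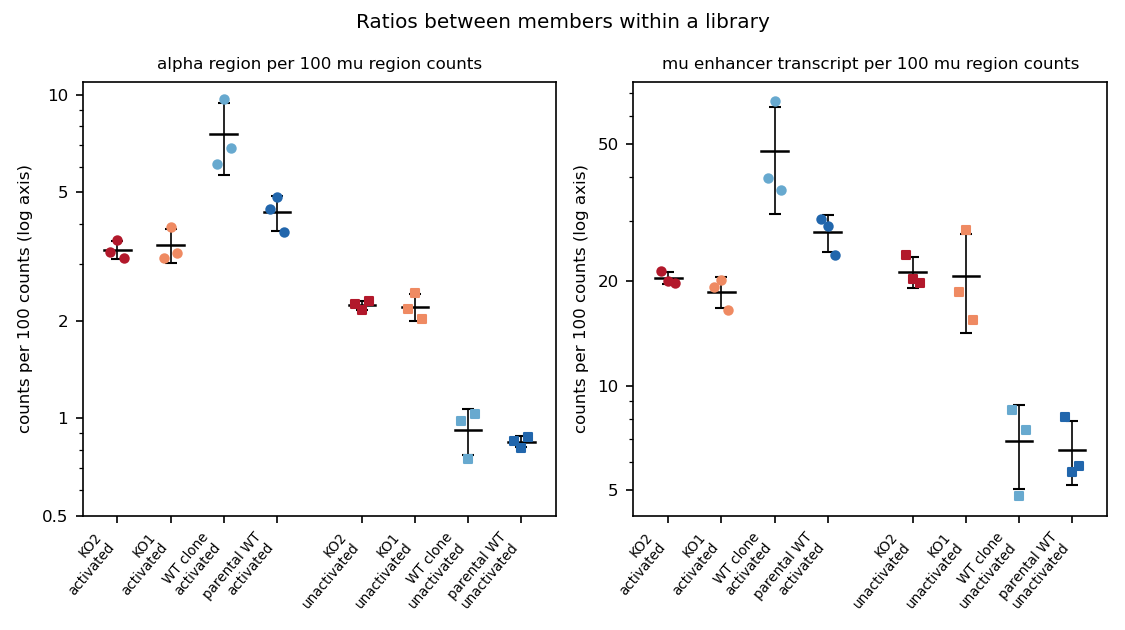
Counts of the alpha region (left) and of the mu enhancer transcript (right) per 100 counts of the mu region in the same library (log y axes), by line and state, with 1 point per culture and a bar for the mean ± SD of 3 cultures. Both ratios are higher in KO than in WT without activation and mostly lower in KO than in WT after it, with the WT clone culture at 9.68 and 66.4 the highest in both panels.

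These values depended on which mu target stood below the line. With the mu enhancer transcript in place of the mu region, the log2 alpha to mu ratio differed between KO and WT by -0.32 in unactivated cells (exact permutation p adjusted over the 5 comparisons = 0.0568) and by 0.12 in activated cells (adjusted exact permutation p = 0.188). The difference of activation effects was then 0.43 (adjusted permutation p = 0.0289), so that each of the 3 values had the opposite sign to that against the mu region. Against the sum of the mu region and the mu enhancer transcript, alpha counts per 100 were 1.84 ± 0.0641 in unactivated KO and 0.826 ± 0.0916 in unactivated WT, and 2.82 ± 0.242 in activated KO and 4.23 ± 1.05 in activated WT (n = 6).

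**Figure D4:**
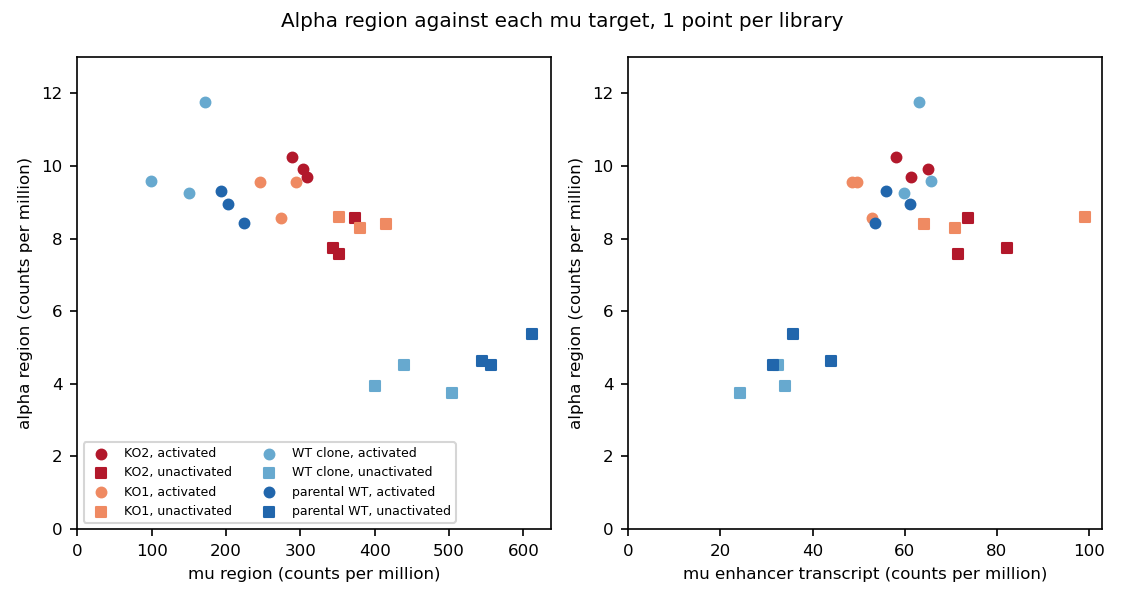
Alpha region (y axes, CPM) against the mu region (left x axis, CPM) and against the mu enhancer transcript (right x axis, CPM), with 1 point per library; color marks the line and shape the state. Unactivated WT libraries stand apart at 3.76 to 5.37 CPM of the alpha region, with the mu region at 401 to 612 CPM and the mu enhancer transcript at 24.2 to 44.1 CPM.

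A pair of further ratios was chosen after their values were seen, with p adjusted over 10 tests. Mu enhancer counts per 100 mu region counts were 21.1 ± 4.42 in unactivated KO and 6.71 ± 1.49 in unactivated WT, a log2 difference of 1.65 (exact permutation p = 0.00216, adjusted 0.00309). In activated cells they were 19.6 ± 1.65 in KO and 37.7 ± 15.2 in WT, a log2 difference of -0.87 (exact permutation p = 0.00216, adjusted 0.00309), and in both states the genotypes did not overlap. Activation changed this ratio by a log2 of 2.44 in WT (exact permutation p = 0.00216) and by -0.083 in KO (exact permutation p = 0.558). In KO the mu region and the mu enhancer transcript thus fell by like amounts on activation, and in WT they moved apart. How far the sharing of reads between targets bears on this ratio was not tested.

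Alpha switch intron counts per 100 alpha region counts were 8.08 ± 3.82 in unactivated KO and 20.1 ± 6.16 in unactivated WT, a log2 difference of -1.38 (exact permutation p = 0.00216, adjusted 0.00309) with no overlap. By line they were 3.94, 5.86 and 5.38 in unactivated KO2 and 9.45, 9.45 and 14.4 in unactivated KO1. The unactivated WT clone had 19.4, 32.1 and 16.2 and unactivated parental WT 15.5, 20.0 and 17.1. The higher alpha region count of unactivated KO cells was thus not matched by the intron transcript in either KO line, although KO2 and KO1 differed in how far they lay below WT. In activated cells the ratio was 31.5 ± 4.96 in KO and 25.7 ± 7.44 in WT (exact permutation p = 0.119).

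Compared per length, in the deposited TPM values, which divide by effective length and are scaled to 1 M per library, the members were closer to each other than by counts. The effective length is 442 of 641 bases for the alpha region, 195 of 394 for the alpha switch intron transcript, 1196 of 1395 for the mu enhancer transcript and 10511 of 10710 for the mu region, so TPM places the short members higher than division by full length would. In unactivated KO the mu enhancer transcript led with 51.8 ± 10.96 TPM, before the mu region with 28.2 ± 2.80 TPM, the alpha region with 14.9 ± 1.58 TPM and the alpha switch intron transcript with 2.78 ± 1.45 TPM. In unactivated WT the mu region led with 38.7 ± 8.41 TPM, before the mu enhancer transcript with 22.4 ± 4.65 TPM, the alpha region with 8.04 ± 1.60 TPM and the alpha switch intron transcript with 3.58 ± 0.935 TPM. The enhancer element also led in activated KO, with 35.6 ± 4.42 TPM against 20.7 ± 2.44 TPM for the mu region and 16.5 ± 1.57 TPM for the alpha region, and in activated WT, with 35.5 ± 2.02 TPM against 11.8 ± 3.31 TPM and 15.3 ± 2.20 TPM. The alpha to mu ratio per length was 0.802 ± 0.0712 in activated KO and 1.41 ± 0.511 in activated WT, and 0.529 ± 0.0336 in unactivated KO and 0.210 ± 0.0253 in unactivated WT. Over all activated WT libraries the alpha and mu regions overlapped in TPM. Within a library their ratio was 1.46, 2.30 and 1.62 in the activated WT clone. It was 1.05, 1.15 and 0.896 in activated parental WT, where the order thus varied between cultures. This order was not tested.

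Lines of the same genotype give the background for these differences. No member was called between KO2 and KO1 or between the WT clone and parental WT in either state, against 0.46% of all targets for KO2 and KO1 in activated cells, 0.403% in unactivated cells, 0.506% for the WT clone and parental WT in activated cells and 0.527% in unactivated cells. At an unadjusted p under 0.05, edgeR gave 3745 of 61074 targets for KO2 and KO1 in activated cells and 3375 in unactivated cells. For the WT clone and parental WT it gave 4075 in activated and 4365 in unactivated cells. Among the members there were 3 such differences among the 16 tested. They were the mu region in the WT clone, with log2 changes of -0.53 ± 0.13 when activated (adjusted p = 0.0817) and -0.30 ± 0.13 when unactivated (adjusted p = 0.603), and the alpha switch intron transcript in unactivated KO2. In both states the 3 WT clone cultures lay below the 3 parental WT cultures for the mu region, without passing the test.

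Genes that act on these targets were measured as the summed counts of regions wholly inside 1 gene, so they describe part of each gene's RNA and not its mRNA. Shares of all gene values at an unadjusted p were not computed, so the list counts at such a p have no background beside them. Among factors of the alpha germline promoter, 15 of 16 genes could be tested. In activated KO cells 1 rose and 0 fell, against 6.35% of all 4485 gene values called higher and 2.34% called lower, and the list median log2 change was -0.066 against 0.068 over all gene values. In unactivated KO cells 2 rose and 0 fell, against 3.46% higher and 3.14% lower, with a median of -0.077 against -0.036. Runx1, a RUNX factor, was the member higher in both states (0.63 ± 0.16, adjusted p = 0.0089, and 0.59 ± 0.15, adjusted p = 0.0153), and Ets1, an ETS factor, had 8.08 ± 1.34 CPM in unactivated KO and 4.63 ± 1.35 CPM in unactivated WT cells (adjusted p = 0.00758).

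On activation 8 genes of this list rose and 2 fell in KO, against 24.1% of gene values called higher and 4.21% lower. In WT 5 rose and 2 fell, against 16.5% higher and 5.44% lower. The list medians were 0.62 in KO and 0.34 in WT, beside 0.28 and 0.18 over all gene values. Tgfbr2, the type II TGF-beta receptor, was at 20.7 ± 1.45 CPM in activated and 7.15 ± 0.831 CPM in unactivated KO cells, and at 21.1 ± 3.81 CPM in activated and 8.57 ± 2.07 CPM in unactivated WT cells. Smad7, the inhibitory SMAD that TGF-beta signalling induces, rose by a log2 of 1.91 in KO and 2.08 in WT. Tgfbr1, the type I receptor, rose by 2.04 in KO and 1.98 in WT, and Runx3 rose by 0.79 in KO and 0.98 in WT. The log2 change of Runx1 was -0.93 in KO and -0.98 in WT, and that of Spi1, the ETS factor PU.1, was -0.80 in KO and -1.06 in WT, all 4 called. By edgeR 0 genes of the list were called in the difference between the genotypes' activation effects, against 0.424% of gene values called higher and 0.134% lower, and 1 had an unadjusted p under 0.05.

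The list for the mu enhancer held 23 genes, both factors that bind it and coactivators or inhibitors of such factors. Of these 15 could be tested, of which Runx1, Ets1 and Spi1 are also in the alpha list. In activated KO cells 4 rose and 0 fell, against 6.35% of gene values called higher and 2.34% lower, with a list median of 0.24 beside 0.068 over all gene values. Irf4, a factor that plasma cells need, had 3.85 ± 0.620 CPM in KO, against 2.02 ± 0.407 CPM in WT (adjusted p = 0.00208), and Tcf4, the E protein E2-2, 21.0 ± 3.36 CPM in KO, against 11.2 ± 4.00 CPM in WT (adjusted p = 0.0086). Runx1 and Pou2af1, the OCT coactivator OCA-B (log2 0.61 ± 0.18), were the other 2. In unactivated KO cells 3 rose and 1 fell, against 3.46% higher and 3.14% lower, with a median of 0.10 beside -0.036. Irf8 fell to 0.136 ± 0.0844 CPM in KO, against 0.810 ± 0.448 CPM in WT (log2 -2.60 ± 0.43), while Pou2f1, the octamer factor OCT-1, rose along with Ets1 and Runx1. Activation raised 9 and lowered 3 of these genes in KO, against 24.1% of gene values called higher and 4.21% lower, with a median of 0.64 beside 0.28. It raised 5 and lowered 2 in WT, against 16.5% higher and 5.44% lower, with a median of 0.38 beside 0.18. By edgeR 0 were called in the difference between genotypes, against 0.424% higher and 0.134% lower, where 4 had an unadjusted p under 0.05.

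Among genes of mu mRNA processing 4 of 14 could be tested, and in KO against WT 1 rose and 0 fell in each state, beside 6.35% of gene values called higher in activated and 3.46% in unactivated cells. Prdm1, which encodes Blimp-1, was higher in KO in both states, with 0.596 ± 0.188 CPM in activated KO, against 0.243 ± 0.123 CPM in activated WT, and 0.938 ± 0.145 CPM in unactivated KO, against 0.570 ± 0.353 CPM in unactivated WT. It fell on activation in both genotypes, and Aff1, a subunit of the super elongation complex, rose on activation in KO (log2 0.38 ± 0.14, adjusted p = 0.0483), a call that was lost with relative log expression scaling. Among partners of the mu chain 5 of 13 could be tested, of which 1 rose and 1 fell in activated KO cells, against 6.35% of gene values called higher and 2.34% lower. Blk, a SRC family kinase of the B cell receptor, was at 4.54 ± 1.76 CPM in activated KO and 1.63 ± 0.804 CPM in activated WT, and Syk, the kinase that the receptor recruits, at 5.78 ± 1.70 CPM in activated KO and 8.58 ± 2.69 CPM in activated WT (log2 -0.62 ± 0.19). In unactivated cells edgeR called 0 partners between genotypes, with 1 at an unadjusted p under 0.05 (Blk) and a list median of -0.12, against 3.46% of gene values called higher and 3.14% lower. In the fit with no term for replicate number, Blk alone of these lists differed in its activation effect, by 1.04 ± 0.23, KO minus WT (adjusted p = 0.0305). With the replicate number as a block Irf8 was called there too. The block also added calls of Irf8 between activated genotypes, Ell2 between genotypes in both states and Tcf4 on activation in WT. With counts summed per line Runx1 and Prdm1 were not called between genotypes in either state, Pou2af1 and Syk were not called in activated cells, Prdm1 and Aff1 were not called on activation, and the Blk difference was not called.

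Over the 24 libraries, the gene values most like the alpha region in log2 CPM, among 224 with a mean of at least 5 CPM, were Ly6e, a GPI-anchored surface protein (Pearson r = 0.863), Bach2, a repressor of plasma cell differentiation (0.861), the long noncoding RNA Chaserr (0.838), Gnaq, a G protein subunit (0.784), and the zinc finger gene Zfp710 (0.777). Those most like the mu region were Ikzf1, which encodes the lymphoid factor Ikaros (0.869), Gas7 (0.807), Myc (0.799), Plxnc1, a semaphorin receptor (0.784), and Plek, a substrate of protein kinase C (0.764). Bach2 had 16.7 and 8.33 CPM in activated and unactivated KO cells, and 11.3 and 4.36 CPM in activated and unactivated WT cells, so it was lowest, as the alpha region was, in unactivated WT. Ikzf1 had 52.1 and 66.0 CPM in activated and unactivated KO cells, and 36.8 and 72.6 CPM in activated and unactivated WT cells, in the order of the mu region. The libraries behind each r share lines and states and are not independent.

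Within 10 kb of Igha lay a further region at 113248085 to 113250566 of chromosome 12, 5638 bases from the gene on the side of the downstream enhancers. It had 5.15 ± 1.69 CPM in activated KO and 0.792 ± 0.170 CPM in activated WT, and 3.73 ± 0.817 CPM in unactivated KO and 0.465 ± 0.234 CPM in unactivated WT (n = 6). Its KO cultures, at 2.67 to 7.21 CPM over both states, all lay above its WT cultures, at 0.266 to 1.09 CPM, unlike the alpha region, whose genotypes overlapped in activated cells. The region between it and Igha, at 113253592 to 113254334, was at 0 in every library but 1, an unactivated WT library with 0.00708 CPM.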

How the data were processed

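Stranded, single-end, ribosome-depleted total RNA libraries of CH12 cells were made, per the labels' protocols; kallisto 0.43.0, DESeq2 and the build GRCm38.p5 are named in the submitters' processing notes. Annotation release, index and strand setting: not given in the sources used here. Per library the authors deposited an estimated count (expected count, not whole, not normalized) and a TPM value, scaled for length and depth, for each of 171152 targets; 9 samples of other assays were not analysed here. Gene positions were taken from RefSeq on GRCm38.p6.

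After rounding, TMM scaling and filterByExpr, 61074 targets were kept, of which 49806 are transcripts. A quasi-likelihood model in edgeR 4.0.16 (R 4.3.3) was fitted to the 24 libraries with a mean for each of 8 groups and lines weighted equally, and p was adjusted by Benjamini-Hochberg over all targets kept. The model was tested on simulated data. Gene values, the sums of regions wholly inside 1 gene, were fitted alike. Ratios (0.5 added to both counts) were tested by exact permutation, which takes cultures as independent; the labels call them biological repeats and say no more, so p may measure technical spread. Replicates differed by more than sampling noise (chi-square per degree of freedom at least 11.88). Of 84 same-numbered pairs, 42 had a correlation of deviations over 0.1 (23 of 28 for replicate 1, 4 for replicate 2, 15 for replicate 3). Pairs with different numbers were not compared, so whether replicate numbers pair samples is not settled. The main tests leave the number out.

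The members, lists and tests were chosen with earlier results of these data known. The text names the members, neighbours within 10 kb, the 5 gene values most like each constant region, and at most 4 called genes per list and comparison. Alternatives tried were DESeq2 1.42.0, RLE scaling, no filter, a replicate block, only the compared libraries, counts summed per line, lines alone, each library left out, other ratio members, 1 count added and, added after the data were seen, totals only, leaving out 3 libraries, the summed mu ratio and differences within cultures.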

Additional observations from a re-analysis of the deposited data

Results flagged for a closer look

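In the activated WT libraries the highest alpha region value, WT clone replicate 3 at 11.763 CPM, stood apart from the other 5 by more than Dixon's limit for 6 values (0.655 of the range against 0.625). Chance gives such a gap in about 1 in 20 groups, and 20 groups were looked at. Without this library the log2 change of the alpha region between activated KO and WT was 0.0098, against -0.032 with it, and neither was called.

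By edgeR's test of the difference itself, KO minus WT, the activation effect differed between genotypes for the alpha region (log2 -0.89). It also differed for the mu region (1.18) and the mu enhancer transcript (-1.32). These calls were lost with counts summed per line. The alpha to mu ratio (-2.09) was flagged by the exact permutation test. The null of that test is that genotype matters in neither state, so it does not test the difference alone.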

How the results depend on the processing

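Relative log expression scaling, DESeq2, no filter on low counts and the fit of only the compared libraries (not possible for the difference of activation) changed no call or sign of the 4 members. No call of a member was lost without any single library. The log2 change of the alpha region between activated KO and WT was -0.074 to 0.0098 over these, 0.034 with KO2 alone, 0.079 against parental WT alone and 0.0096 with totals only; that of the mu enhancer transcript was 0.0081 with KO2 alone. The alpha switch intron transcript in unactivated cells was at 0.071 with KO1 alone and called at -1.12 with KO2 alone. With KO2 alone the activation calls in KO of the mu region (-0.35) and the mu enhancer transcript (-0.41) were lost, as was that of the mu region in unactivated cells against only the WT clone (-0.33). Summing counts per line, which leaves 8 sums and fewer residual degrees of freedom, lost the calls of the mu region between genotypes when activated (0.68) and unactivated (-0.46) and on activation in KO (-0.53), the alpha region when unactivated (0.88), the alpha switch intron transcript on activation in WT (1.36), and the differences for the alpha region (-0.92), mu region (1.13) and mu enhancer transcript (-1.33). Targets called by edgeR were then 266 against 3985 in activated and 360 against 4374 in unactivated cells, 6095 against 11982 for activation in KO, 6104 against 12366 in WT and 0 against 705 for the difference, where 5680 had an unadjusted p under 0.05; the difference gave 322 without the filter and 1792 with DESeq2. Totals-only scaling moved the median log2 change of all targets on activation to 0.18 in KO, against 0.068, and the higher calls to 8480 of 12202, against 6649 of 11982; in WT these were 7567 of 12381 and 6119 of 12366. With the alpha switch intron over the mu enhancer transcript the log2 ratio differed by 0.45 (activated), -1.70 (unactivated), 2.73 (activation in KO), 0.58 (activation in WT) and 2.15 (difference). Neither the activated difference nor activation in WT was still called. With the alpha region over the mu enhancer transcript these were 0.12, -0.32, 0.68, 0.25 and 0.43. Of these only activation in KO (adjusted exact permutation p = 0.0108) and the difference were called. The cause was not tested. Activation in WT raised the log2 ratio by 2.35 in parental WT and 3.02 in the WT clone, given with no test. Whether the replicate numbers pair the samples is not settled. With the number as a block no member's call changed (alpha region 0.86 when unactivated, mu region 0.71 when activated). Between genotypes 4214 targets were then called in activated and 4626 in unactivated cells. The alpha switch intron transcript, at 10 to 41 counts in unactivated libraries, is the member most limited by depth.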
